A study of Mus musculus with 2 samples.

Results

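The phagocyte NADPH oxidase was followed through its 5 genes Cybb, Cyba, Ncf1, Ncf4 and Rac2, taken by name from a bone marrow single-cell table of 25943 genes. All 5 were rows of the table. The cells came from wild-type male mice of 8 to 10 weeks, flushed from tibias and femurs and treated with red cell lysis buffer, so red cells may be under-represented. One library held marrow of control mice. The other held marrow of mice whose middle cerebral artery had been blocked (MCAO), which models ischemic stroke. Whether the controls had sham surgery, the time after occlusion and the number of animals pooled in a library are not given in the sources used here.

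This oxidase moves electrons from NADPH across a membrane onto oxygen, which makes superoxide. Its membrane part, cytochrome b558, joins gp91phox (also called NOX2, from Cybb) to p22phox (Cyba). On activation the cytosolic proteins p47phox (Ncf1) and p40phox (Ncf4) are among those that move to this pair together with the GTPase Rac2. Neutrophils use the oxidase to kill engulfed microbes, and inherited loss of a subunit causes chronic granulomatous disease.

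The control library held 5212 cells and 25886279 unique molecular identifiers (UMIs, each counting 1 captured transcript), and the MCAO library held 5398 cells and 35401492 UMIs. Median depth was 3344 and 4952 UMIs per cell. Each condition is 1 library, so no difference between conditions has a replicate check, no p-value is given, and every interval below is a 95% interval that covers counting error only. The libraries share 5120 cell names, which are running numbers: 13.8% of the shared names fell in the same cell class in both libraries, where the class shares alone give 13.5%, and the log depths of same-named cells had a correlation of 0.03. Cells were grouped into 25 clusters and 18 classes without using the oxidase genes. Class names rest on marker genes, so each stands for cells like that type. Mature neutrophils, for example, were named from genes such as Mmp9, Retnlg and Cxcr2. Libraries were compared in 14 classes, those of 50 cells or more in both.

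In the mm10 annotation Cybb lies on chromosome X (9435252 to 9487771, minus strand) and Cyba on chromosome 8 (122424776 to 122432930, minus strand). Ncf1 lies on chromosome 5 (134220053 to 134229625, minus strand). Ncf4 (78244801 to 78262580, plus strand) and Rac2 (78559167 to 78572783, minus strand) are both on chromosome 15. Ncf1 overlaps Gtf2ird2 and Cyba overlaps Gm20388, each on the opposite strand, and whether the counting used strand is not given in the sources used here. Gtf2ird2 had 0.486 UMIs per 10000 in control and 0.460 in MCAO mature neutrophils. It was also lower in MCAO in pro-B or pre-B cells, at 0.184 and 0.172. In the other classes where it was counted it was higher in MCAO. Promyelocytes, for example, had 0.115 and 0.267 (27 and 122 UMIs), and monocytes 0.186 and 0.246.

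The start regions of the 2 genes below are shown because each holds the letters GAAA, then any 2 bases, then GAAA again, a spaced repeat of the kind that interferon regulatory factors bind, and Cybb holds it more than once. They are the 250 bases before the RefSeq start (build GRCm38.p6), read 5′ to 3′ on the gene's own strand, with the matches on either strand in capitals. The Cybb window is chrX:9469325-9469574 and the Ncf1 window is chr5:134229626-134229875, both on the minus strand. The Cybb window lies inside the longer gene model of the mm10 annotation used for the coordinates above.
Cybb: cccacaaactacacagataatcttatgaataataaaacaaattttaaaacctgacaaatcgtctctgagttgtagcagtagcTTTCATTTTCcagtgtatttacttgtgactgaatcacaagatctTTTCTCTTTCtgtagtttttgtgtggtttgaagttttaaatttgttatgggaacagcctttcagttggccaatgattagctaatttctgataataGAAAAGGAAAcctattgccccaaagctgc
Ncf1: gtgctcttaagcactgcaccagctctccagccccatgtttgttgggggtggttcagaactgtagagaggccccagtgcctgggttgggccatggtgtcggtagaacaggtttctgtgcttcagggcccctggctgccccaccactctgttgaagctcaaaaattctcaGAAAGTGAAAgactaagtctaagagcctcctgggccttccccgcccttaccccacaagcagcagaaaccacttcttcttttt
Cybb had 3 matches, starting 168, 124 and 29 bases before the start, and Ncf1 had 1 match at 82 bases. Of 32851 RefSeq promoter windows of this length, 2.98% held at least 1. The Cyba window (chr8:122432941-122433190) held none. Ncf4 and Rac2 have no entry in the promoter table. GAGGAA is 1 form of the sites bound by PU.1 and was found in 23.3% of windows. TTGCNNAA is 1 form of those bound by C/EBP factors and was found in 9.56%. Neither was in any of the 3 windows, on either strand. Other and shorter forms were not searched, so these windows may still hold sites for those factors.

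Together the 5 genes gave 0.529% of all UMIs in the control library and 0.589% in the MCAO library. They were low in promyelocytes, higher in pre-neutrophils, and then parted at the last step. Cybb was several times lower in mature than in immature neutrophils, Cyba, Ncf1 and Ncf4 were lower there by less, and Rac2 was near its highest level. Both libraries had this course. Levels here and below are UMIs of the gene per 10000 UMIs of the class. They are not corrected for transcript length, so each gene is compared only with itself.

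**Figure D1:**
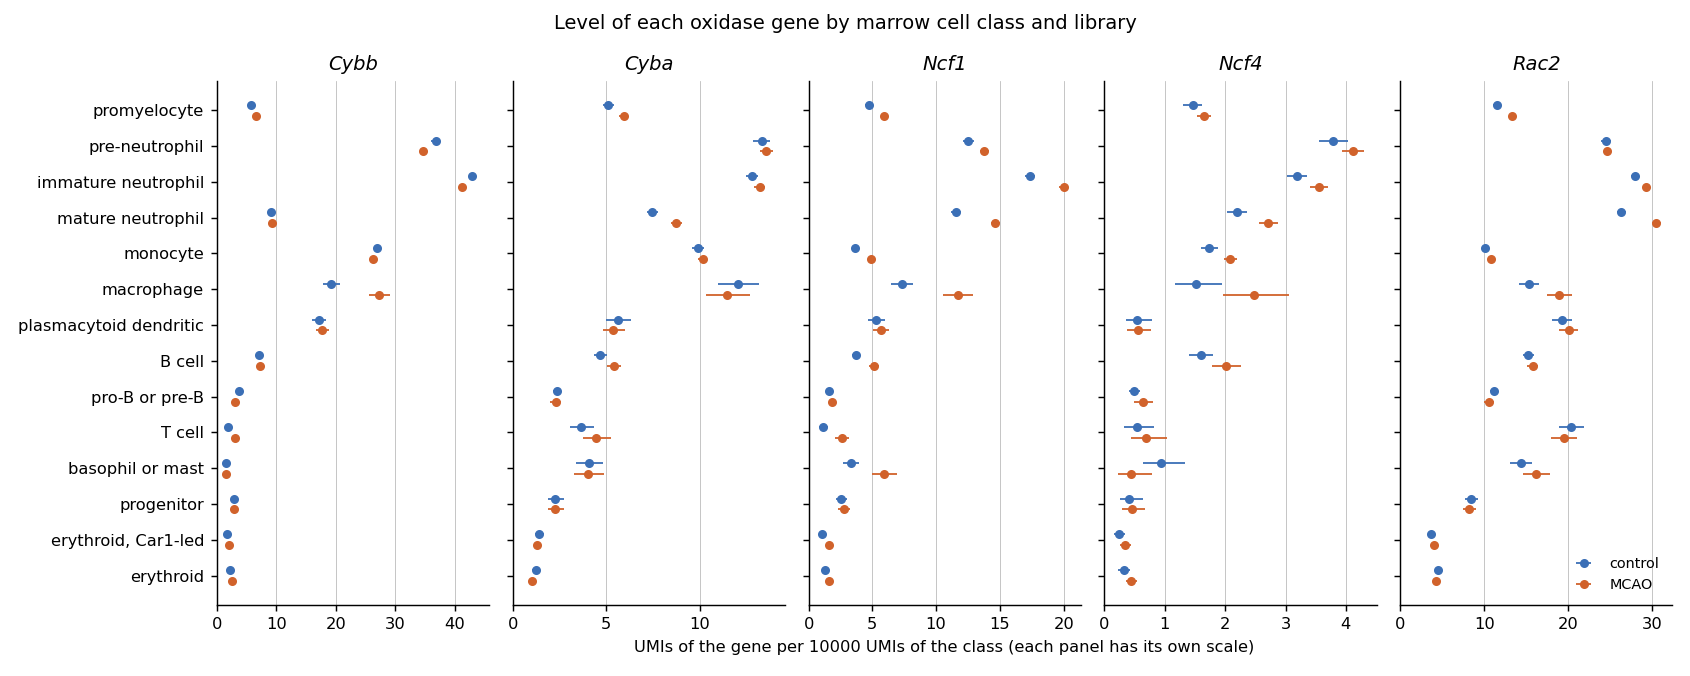
Level of each gene (UMIs per 10000 UMIs of the class, 1 panel and scale per gene) in 14 marrow cell classes, control in blue and MCAO in orange, with 95% Poisson intervals as bars. Cybb is highest in immature neutrophils at 43.0 and 41.2, while Rac2 is also high outside the myeloid classes, at 20.4 and 19.5 in T cells.

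Cybb encodes the catalytic subunit that carries the electrons. Its level was 5.83 per 10000 in control and 6.67 in MCAO promyelocytes, and 36.8 and 34.6 in pre-neutrophils. It reached 43.0 and 41.2 in immature neutrophils and was 9.15 and 9.21 in mature neutrophils. The pre-neutrophil level was thus 6.31 times (5.96 to 6.68) the promyelocyte level in control and 5.19 times (4.995 to 5.40) in MCAO. The immature level was 4.70 times the mature level in control and 4.47 times in MCAO. Per cell, mean Cybb UMIs went from 21.7 to 2.36 in control and from 23.4 to 3.04 in MCAO, while median depth went from 4840.5 to 2348 and from 5684 to 3074 UMIs.

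Of the 5 genes, Cybb alone had a mature level at most 0.5 times the immature level, as did 12.1% of the genes with 50 UMIs or more over both stages in control and 10.7% in MCAO. All 5 had a pre-neutrophil level at least 2 times that of promyelocytes in control, where 7.22% of genes did. In MCAO 4 of the 5 did, with Rac2 at 1.86 times, against 5.96% of genes. Over the 14 classes, Cybb and Ncf1 were highest in immature neutrophils in both libraries, as were 2.67% and 2.35% of genes. Cyba and Ncf4 were highest in pre-neutrophils, as were 2.54% and 2.45%. Rac2 was highest in immature neutrophils in control and in mature neutrophils in MCAO, where 6.79% of genes in control and 6.22% in MCAO had their highest level in mature neutrophils.

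Cybb was also high in monocytes and plasmacytoid dendritic cells. Monocytes had 27.0 in control and 26.3 in MCAO, and plasmacytoid dendritic cells had 17.2 and 17.7. Within the monocyte class the level depended on the cluster. Cluster 19, led by Ace and Cd300e, genes of patrolling monocytes, had 43.2 and 38.7. Cluster 3, led by Vcan, Ccr2 and Fn1, genes of classical monocytes, had 35.9 and 34.2. The deeper cluster 9, led by Itga1 and F13a1, had 16.9 and 16.7. The intervals of cluster 9 overlapped those of neither other cluster.

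B cells had 7.18 and 7.24, which were 1.42 and 1.26 times the level that free RNA could bring. That level was estimated by letting all S100a8 and S100a9 UMIs of a class, which are neutrophil transcripts, come with the mean profile of the library. By the same measure Cybb in T cells (1.86 and 3.10), erythroid cells (2.21 and 2.53) and basophil or mast cells (1.49 and 1.55) lay below what free RNA could bring, at 0.475 to 0.660 times it. Cybb in these classes therefore cannot be told from free RNA. The estimate is the most that free RNA could bring, so a level below it does not show that a class lacks the transcript. In promyelocytes the same ratio was 0.954 and 0.920, so Cybb there cannot be told from free RNA by this measure either.

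Cyba encodes p22phox, the partner that steadies the catalytic subunit. It was 5.10 and 5.92 in promyelocytes, 13.3 and 13.5 in pre-neutrophils, 12.8 and 13.2 in immature neutrophils, and 7.46 and 8.73 in mature neutrophils. The pre-neutrophil and immature intervals overlapped in both libraries. The mature level was 0.584 times (0.557 to 0.612) the immature level in control and 0.663 times (0.637 to 0.689) in MCAO. Cyba was spread more widely than its partner. T cells had 3.67 and 4.45, which were 2.77 and 2.20 times what free RNA could bring, where Cybb was below that level. NK cells, with 39 and 43 cells, had 5.71 and 4.98.

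Ncf1 encodes p47phox, the organizer that is phosphorylated to start assembly. It was 4.71 and 5.91 in promyelocytes, 12.5 and 13.8 in pre-neutrophils, 17.4 and 20.002 in immature neutrophils, and 11.6 and 14.6 in mature neutrophils. The immature level was 1.39 times (1.33 to 1.44) the pre-neutrophil level in control and 1.45 times in MCAO. Ncf1 was low in monocytes, at 3.62 and 4.91, where Cybb was high. Its share of the UMIs of the 5 genes was 6.92% and 9.05% in monocytes, against 20.4% and 22.2% in mature neutrophils.

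Ncf4 encodes p40phox, which binds a phosphoinositide of the phagosome membrane. It was 1.46 and 1.65 in promyelocytes and highest in pre-neutrophils, at 3.79 and 4.11. It was 3.19 and 3.56 in immature and 2.19 and 2.71 in mature neutrophils. Outside the granulocytes it was seen in monocytes, at 1.74 and 2.08, and B cells, at 1.59 and 2.01. In B cells these levels were 3.15 and 3.08 times what free RNA could bring. In plasmacytoid dendritic cells, where Cybb was high, Ncf4 was 0.547 and 0.548, or 1.34 and 1.07 times the free-RNA level.

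Rac2 encodes the blood-cell GTPase that switches the assembled enzyme on and also acts in cell movement. It was 11.5 and 13.3 in promyelocytes, 24.6 and 24.7 in pre-neutrophils, 28.0 and 29.3 in immature neutrophils, and 26.3 and 30.5 in mature neutrophils. The mature level was 0.941 times (0.915 to 0.967) the immature level in control and 1.04 times (1.02 to 1.07) in MCAO. The direction of this small step thus differed between the libraries. Per cell, mean Rac2 UMIs were lower in the shallower mature cells, going from 14.1 to 6.80 in control and from 16.7 to 10.1 in MCAO. Rac2 was also high outside the myeloid line. T cells had 20.4 and 19.5, plasmacytoid dendritic cells 19.2 and 20.1, and B cells 15.3 and 15.8. It exceeded the free-RNA level by more than 1.5 times in both libraries in 8 of 14 classes, against 2 of 14 for Cybb, 6 for Cyba, 5 for Ncf1 and 3 for Ncf4. This measure says nothing of pre-neutrophils and of immature and mature neutrophils, where S100a8 and S100a9 are the cells' own.

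**Figure D2:**
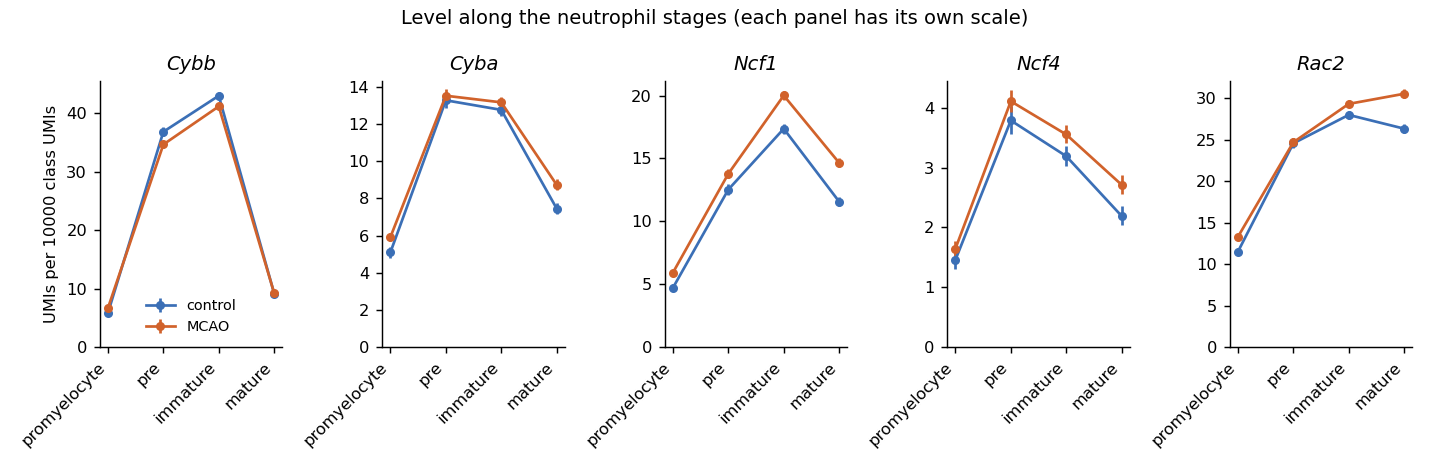
Level along 4 neutrophil stages (UMIs per 10000 UMIs of the class, 1 panel and scale per gene) in the control (blue) and MCAO (orange) libraries, with 95% Poisson intervals. Cybb is low in mature neutrophils, at 9.15 and 9.21, whereas Rac2 is high there, at 26.3 and 30.5.

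Rac1, the broadly expressed relative of Rac2, had a higher level per 10000 in mature than in immature neutrophils, at 1.62 times in control and 1.64 times in MCAO. Per cell, mean Rac1 UMIs were lower in the shallower mature cells, going from 0.958 to 0.796 in control and from 1.13 to 1.08 in MCAO. Hvcn1, the proton channel that balances the charge the oxidase moves, was much lower in mature neutrophils, as Cybb was. It was 0.988 and 0.931 in immature and 0.127 and 0.132 in mature neutrophils.

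The mix of the 5 transcripts therefore changed with the stage. Cybb gave 41.2% of their UMIs in control and 38.4% in MCAO immature neutrophils, but 16.1% and 13.99% in mature neutrophils. Rac2 gave 26.8% and 27.3% in immature and 46.4% and 46.4% in mature neutrophils. The 5 genes together made 104 and 107 UMIs per 10000 in immature neutrophils and 56.7 and 65.8 in mature neutrophils. These shares are of UMIs and are not corrected for length.

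Cells were then thinned to a fixed depth to count in how many a gene was found. After thinning to 1000 UMIs, Cybb was found in 95.9% (94.3 to 97.1) of control and 93.9% (92.3 to 95.2) of MCAO immature neutrophils. In mature neutrophils it was found in 43.4% (40.7 to 46.2) and 43.6% (40.8 to 46.4). Without thinning the mature shares were 61.2% and 68.6%. The erythroid class, which should lack the oxidase, had 19.4% and 25.0% after thinning and 62.6% and 77.6% before. Its median depth before thinning was 4497 and 6047.5 UMIs, against 2348 and 3074 in mature neutrophils. Thinning to 1000 left out 43 control and 0 MCAO mature neutrophils.

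Rac2 was found in 89.1% and 92.6% of mature neutrophils after the same thinning, against 32.6% and 30.2% of erythroid cells. Ncf1 was found in 57.5% (54.7 to 60.3) and 67.8% (65.1 to 70.3) of mature neutrophils, against 13.2% and 14.9% of erythroid cells. Cyba was found in 47.9% and 53.2%, against 12.5% and 11.3%. Ncf4 was found in 17.4% and 21.8%, against 1.39% and 5.24%. Between libraries the mature neutrophil intervals of Ncf1 did not overlap, nor did those of Rac2 (87.2 to 90.7 and 91.0 to 94.0). Those of Ncf4 met at 19.6%.

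At 2000 UMIs per cell, all 5 genes were found together in 45.5% (39.3 to 51.8) of control and 43.6% (38.9 to 48.5) of MCAO pre-neutrophils. The share was 35.4% and 40.5% in immature and 13.2% and 16.6% in mature neutrophils. This depth left out 475 control but 222 MCAO mature neutrophils, so the mature shares cover unlike parts of the class. Monocytes had 9.42% and 11.8%, and B cells 5.33% and 7.40%. No erythroid cell had all 5, of 114 and 220 cells, which allows a share of up to 3.18% and 1.66% by the exact binomial interval. These shares and limits are of cells in which all 5 were detected at this depth, not of cells that hold the oxidase.

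**Figure D3:**
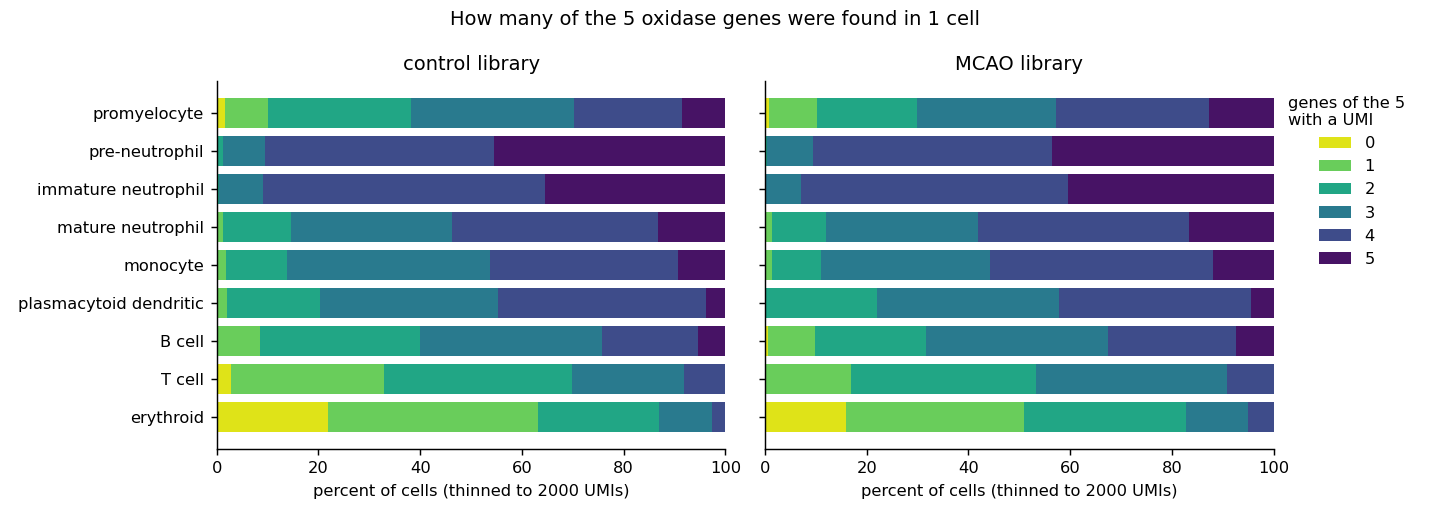
Percent of cells in which 0 to 5 of the 5 genes had a UMI, in 9 classes of the control (left) and MCAO (right) libraries, each cell thinned to 2000 UMIs and shallower cells left out. All 5 genes were found in 45.5% and 43.6% of pre-neutrophils and in 13.2% and 16.6% of mature neutrophils.

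The libraries were next compared within each class, to see whether the oxidase genes differed after MCAO. Ncf1 had the widest difference: its level was higher in the MCAO library in 14 of 14 classes. In plasmacytoid dendritic cells this direction turned when levels were averaged over cells (log2 ratio -0.00). Over all cells of a library Ncf1 was 7.60 per 10000 in control and 9.57 in MCAO. Free RNA is shared by the classes of a library, so the 14 classes are not separate observations. In macrophages and both erythroid classes Ncf1 was under the level that free RNA could bring. How many of all genes were higher in as many classes was not counted, for Ncf1 or for the other genes below. A gene was called different when its level was at least 25% higher in MCAO, or at most 0.8 times the control level. In mature neutrophils 1 of the 5 genes, Ncf1, passed this fold, where 15.3% of the 6749 ranked genes were higher and 18.1% lower by it. The median log2 ratio of the 5 genes was 0.23 there, against -0.01 over all ranked genes. To be ranked, a gene needed 50 UMIs in all and a UMI in 2% of the cells of either library.

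In mature neutrophils the MCAO level over the control level was 1.27 (1.22 to 1.32) for Ncf1 and 1.24 (1.13 to 1.36) for Ncf4. It was 1.17 (1.11 to 1.23) for Cyba and 1.16 (1.13 to 1.19) for Rac2. Cybb had 1.01 (0.961 to 1.06). Thus 4 of the 5 intervals lay above 1, and that of Cybb included it. The share of all ranked genes with an interval above 1 was not counted. The neutrophil transcript S100a8 had a ratio of 1.16 in the same cells and S100a9 had 1.03. Of ranked genes, 87.5% had a lower ratio than Ncf1, 85.2% than Ncf4, 78.9% than Cyba, 77.7% than Rac2 and 52.8% than Cybb.

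In immature neutrophils none of the 5 passed the fold, which 12% of genes passed upwards and 14% downwards. Ncf1 was 1.15 times (1.12 to 1.18), Ncf4 1.11 times and Rac2 1.05 times as high in MCAO, while Cybb was 0.958 times (0.940 to 0.976). Pre-neutrophils had 1.10 for Ncf1 and 0.941 for Cybb, with none past a fold that 13.6% of genes passed upwards and 11.1% downwards. In promyelocytes Ncf1 had 1.26 (1.17 to 1.35) and passed, as did 12.8% of genes.

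**Figure D4:**
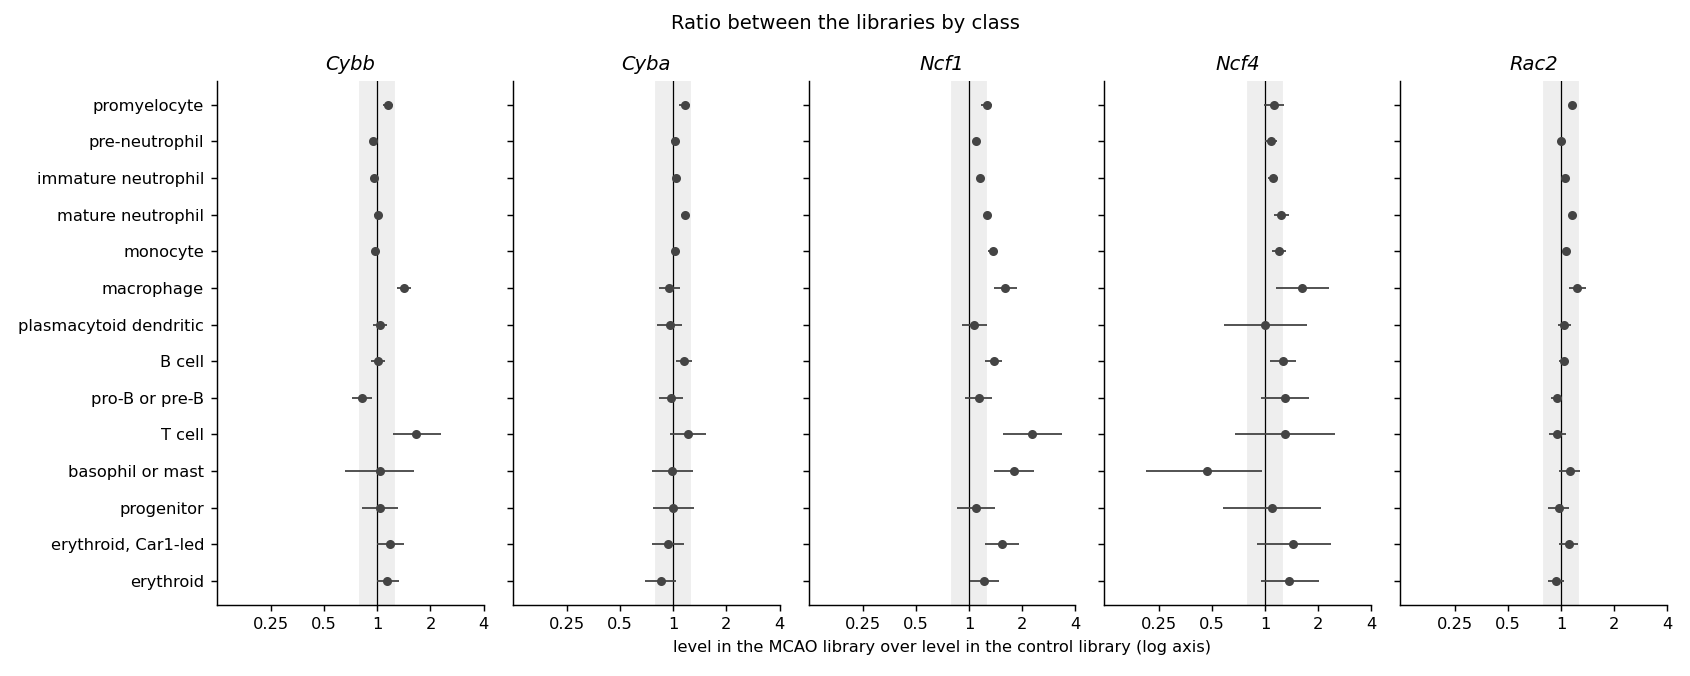
MCAO level over control level of each gene in 14 classes (log axis), with exact 95% intervals as bars and the range within the fold used shaded. Every Ncf1 point lies above 1, from 1.07 to 2.27, while Cyba and Rac2 stay inside the shaded range.

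The mature class was not made up alike in the libraries, and the oxidase genes differ among its clusters. Cluster 1, led by Retnlg, Clec4d and Mmp8, held 45.7% of control and 30.8% of MCAO mature neutrophils. Cluster 2, led by Il1b, Hcar2 and Ifit3, held 50.5% and 24.2%. Clusters 11 and 14, led by stefin A genes such as Stfa2l1 and Stfa3, held 2.75% and 1.07% of control but 26.4% and 18.6% of MCAO mature neutrophils. They were 90.3% and 94.4% MCAO cells.

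Cybb was 12.3 in control and 11.04 in MCAO cells of cluster 1, and 4.86 and 4.05 in cluster 2. Inside each of these clusters it was thus lower in the MCAO library, with the control level 1.11 and 1.20 times the MCAO level. In cluster 14, with 14 control cells, it was also lower, at 18.9 and 14.2. In cluster 11, with 36 control cells, it went the other way, at 2.55 and 4.49, with intervals that met (1.46 to 4.14 and 4.06 to 4.96). The class levels of 9.15 and 9.21 thus pool clusters that differ both in Cybb level and in share. Among cells of 2000 to 4000 UMIs, Cybb was 8.79 in control and 5.86 in MCAO.

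Ncf1 was higher in the MCAO library inside both shared clusters, at 13.9 and 16.7 in cluster 1 and 8.43 and 9.66 in cluster 2. These are ratios of 1.21 and 1.15, under the fold used, and among cells of 2000 to 4000 UMIs the ratio was 1.18. Ncf4 was 2.32 and 2.70 in cluster 1 but 2.05 and 2.05 in cluster 2. Rac2 was 27.4 and 31.0 in cluster 1 and 24.7 and 29.2 in cluster 2. Cyba was 7.84 and 9.36 in cluster 1 and 6.82 and 7.73 in cluster 2. Cluster 14 in MCAO had the highest MCAO levels of Cybb, Ncf1 (17.9), Ncf4 (3.14) and Rac2 (31.5) among the 4 clusters.

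**Figure D5:**
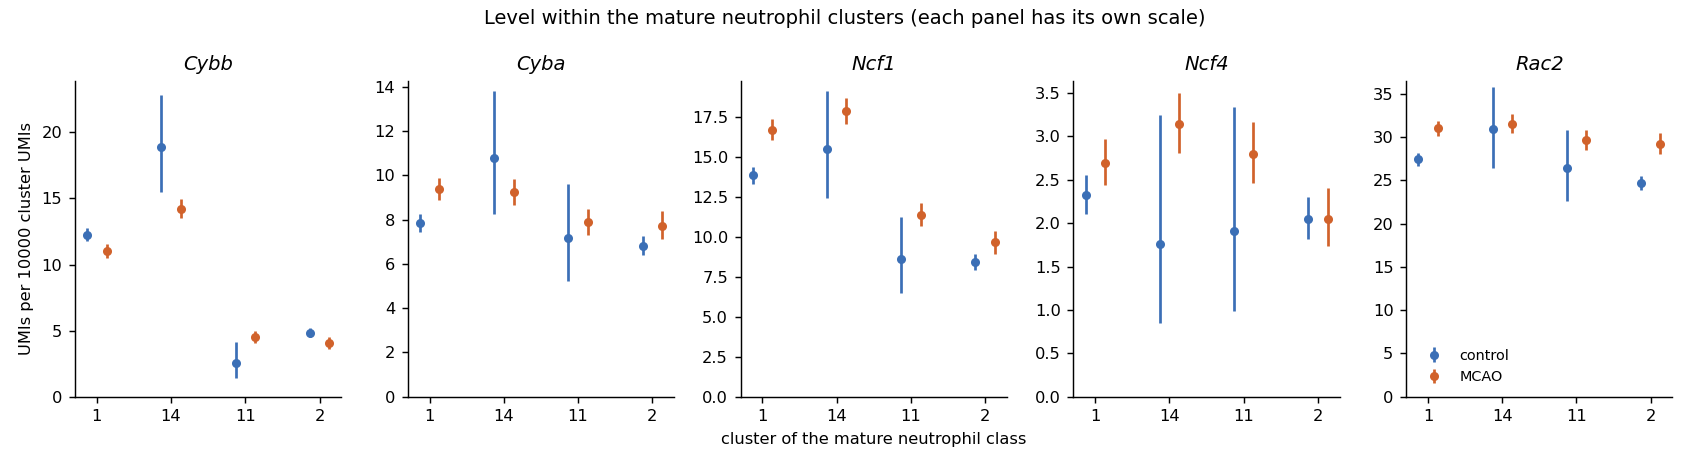
Level of each gene (UMIs per 10000 UMIs of the cluster, 1 panel and scale per gene) in the 4 clusters of the mature neutrophil class, control in blue and MCAO in orange, with 95% Poisson intervals. Clusters 14 and 11 hold 14 and 36 control cells, and their control bars are wide. Cybb is lower in MCAO inside clusters 1 and 2, and Ncf1 is higher.

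Outside the neutrophils, Ncf1 passed the fold in monocytes at 1.36 (1.27 to 1.45), where 13.2% of genes did, and in B cells at 1.38 (1.23 to 1.54), where 14.2% did. It passed the fold in 8 of 14 classes in all, with an interval above 1 in 11. These counts were not made for all genes. The other passing classes were promyelocytes, mature neutrophils, macrophages, T cells, basophil or mast cells at 1.79 (21.7% of genes) and the Car1-led erythroid class at 1.53 (14.3%). In the Car1-led class Ncf1 was 0.817 and 0.838 times the free-RNA level and cannot be told from free RNA. In macrophages Ncf1 was 0.976 and 0.942 times that level and cannot be told from free or engulfed RNA. It did not pass in progenitors and plasmacytoid dendritic cells, where 19% and 18.4% of genes did. The monocyte difference was seen in each cluster of that class: 3.83 and 5.12 in cluster 3, 3.41 and 4.62 in cluster 9, and 3.76 and 6.07 in cluster 19, where S100a8 was 44.7 and 136. The B cell difference was seen in both of its clusters, with 4.20 and 5.46 in cluster 5 and 3.23 and 4.53 in cluster 8.

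The transcripts used to gauge free neutrophil RNA moved the same way. S100a8 was 48.5 in control and 75.3 in MCAO monocytes, and 74.7 and 91.0 in B cells. S100a9 moved by less, at 49.6 and 65.6 in monocytes and 78.2 and 84.9 in B cells. Whether some of these UMIs are the monocytes' own was not tested. Ncf1 exceeded the free-RNA level 2.72 and 2.25 times in monocytes and 1.79 and 1.87 times in B cells. In erythroid cells (1.30 and 1.59) it was at 0.746 and 0.749 times that level, and in T cells (1.14 and 2.60) at 0.868 and 1.16 times. The part of free RNA in the Ncf1 difference was not tested.

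In the macrophage class, with 87 and 60 cells, Cybb (19.3 and 27.3), Ncf1 (7.30 and 11.7) and Ncf4 (1.52 and 2.47) passed the fold upwards, which 20.1% of genes did. The S100a8 and S100a9 level of this class was 552 and 802 per 10000, close to that of the whole library at 98.5% and 130%. Its levels of Cybb, Ncf1, Ncf4 and Rac2 were 0.796 to 1.05 times what free or engulfed neutrophil RNA could bring, so they are not read as macrophage expression. With S100a8 and S100a9 this high, the measure cannot show whether macrophages also make these transcripts.

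Ncf4 was higher in MCAO in 13 of 14 classes and was ranked in 11. It passed the fold upwards in 5 of the ranked classes. These were macrophages, B cells at 1.26, pro-B or pre-B cells at 1.30 (19.7% of genes), erythroid cells at 1.37 (11% of genes) and the Car1-led erythroid class at 1.45. The intervals of the last 3 included 1. In both erythroid classes Ncf4 was 0.745 to 0.858 times the free-RNA level and cannot be told from free RNA. In macrophages Ncf4 was 0.831 and 0.830 times that level and cannot be told from free or engulfed RNA. In B cells the pass was not seen in both clusters: Ncf4 was 1.73 and 1.81 in cluster 5, within the fold, and 1.46 and 2.35 in cluster 8. In basophil or mast cells, where it was not ranked, its ratio was 0.467, from 30 and 11 UMIs. Of the ranked genes there, 20.9% were at most 0.8 times the control level and 1.53% had a lower ratio than Ncf4. Cybb was higher in 10 of 14 classes and passed the fold in macrophages and T cells. In T cells, where 20.4% of genes passed upwards, Cybb cannot be told from free RNA, as described above. Cyba was higher in 8 and Rac2 in 10 of 14 classes, and neither passed the fold in any. Their ratios ranged from 0.848 to 1.21 and from 0.939 to 1.24.

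The other genes of the oxidase system gave little difference between the libraries in mature neutrophils. The list held 22 genes, among them small GTPases, kinases and relatives of the catalytic subunit, of which 18 were rows of the table and 13 were ranked. None of the 13 passed the fold, which 15.3% of all ranked genes passed upwards and 18.1% downwards. Their median log2 ratio was 0.04 against -0.01 over all ranked genes. Arhgdib, which holds Rac proteins inactive in the cytosol, was 10.5 and 12.2, a ratio of 1.16. Rap1b, a small GTPase of the Rap family, was 6.06 and 7.12, a ratio of 1.17, and Pak2, a kinase that Rac proteins activate, was 6.09 and 6.12. Prkcd, a protein kinase C that phosphorylates p47phox, was 3.87 and 3.46, a ratio of 0.895 (0.830 to 0.965). Vav1, an exchange factor for Rac proteins, had 1.16, and Prex1, another, had 0.888. In immature neutrophils 1 of 13 passed upwards, the kinase Pak1 at 1.26, and none downwards, where 12% and 14% of all ranked genes did. Values of single genes in this list and in the lists below are for the whole mature class, not by cluster. The clusters of that class differ in share between the libraries.

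Of the genes listed for the supply of NADPH, the electron donor, 6 of the 7 ranked in mature neutrophils were higher in the MCAO library. The list held 8 genes, not all of them for enzymes that make NADPH themselves. Of the ranked genes in it, 4 passed the fold upwards and none downwards, where 15.3% and 18.1% of all ranked genes did. The median log2 ratio was 0.36. G6pdx, which opens the pentose phosphate pathway, was 3.20 in control and 4.28 in MCAO, a ratio of 1.34 (1.24 to 1.44). Pgd, the next NADPH-making step, was 9.30 and 11.9, a ratio of 1.28 (1.23 to 1.34). Idh1, a cytosolic isocitrate dehydrogenase, was 0.767 and 1.33, a ratio of 1.73 (1.49 to 2.01), and Me2, a malic enzyme, was 0.160 and 0.249 (54 and 104 UMIs), a ratio of 1.56 (1.11 to 2.20). Taldo1 (15.6 and 16.9) and Tkt (5.69 and 6.93), of the branch that returns sugars to glycolysis, had 1.08 and 1.22. Pgls, of the step between those of G6pdx and Pgd, went the other way, at 0.542 and 0.476, a ratio of 0.879 (0.715 to 1.08). In immature neutrophils 2 of 7 passed upwards, Pgd at 1.28 and Idh1 at 1.41, where 12% of all ranked genes did, and the median was 0.23.

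Genes that handle superoxide and peroxide were mixed. All 15 listed were ranked in mature neutrophils, 5 passed upwards and 2 downwards, where 15.3% and 18.1% of all ranked genes did, and the median log2 ratio was -0.00. Gpx1, a glutathione peroxidase, was 13.1 and 16.5, a ratio of 1.26, and Prdx5, a peroxiredoxin, was 16.9 and 22.1, a ratio of 1.31 (1.26 to 1.35). Gclm (0.557 and 0.804), a subunit of the enzyme that starts glutathione synthesis, had 1.44. Mpo, whose product turns peroxide into hypochlorous acid, was 1.32 and 1.76, a ratio of 1.33. B cells, which do not make Mpo, had 1.32 and 1.70, a ratio of 1.29, so the mature neutrophil value is at background level. Cat, or catalase, had 1.51 from 38 and 71 UMIs. Prdx6 was lower, at 2.42 and 1.87, a ratio of 0.772 (0.699 to 0.853), as was Gclc at 0.754 from 30 and 28 UMIs. Txn1 (21.1 in both) and Gsr (12.5 in both) had ratios of 1.00 and 0.995.

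Of 7 listed transcription factors known to act on oxidase genes, 6 were ranked in mature neutrophils and 1 passed upwards, a share near the 15.3% of all ranked genes. Cebpe, needed for late granulocyte maturation, was 0.435 and 0.682 over the whole mature class, a ratio of 1.57 (1.28 to 1.92). Its ratio was 0.959 in pre-neutrophils and 0.977 in immature neutrophils. Spi1, which encodes PU.1, was 7.79 and 7.35, a ratio of 0.943, and Elf1 was 1.58 and 1.78, a ratio of 1.13. Across the stages Cebpe was 5.18 and 4.97 in pre-neutrophils, 3.02 and 2.95 in immature and 0.435 and 0.682 in mature neutrophils, whereas Spi1 was 4.45 and 3.97, 5.32 and 4.83, and 7.79 and 7.35. Cebpe was among the fixed markers used to name pre-neutrophils and immature neutrophils, and Irf8 among those for monocytes. Their levels in these classes are therefore not independent of the class names. Irf8 and Irf1 belong to the factor family whose spaced repeat is marked in the Cybb and Ncf1 windows. Irf8 was 52.9 and 52.6 in plasmacytoid dendritic cells, 5.67 and 5.41 in monocytes and 0.477 and 0.424 in immature neutrophils. Irf1 was 4.78 and 4.27, 1.57 and 1.46, and 1.22 and 1.15 in these classes. Cybb was high in all 3 of them. In B cells, where Cybb was lower (7.18 and 7.24), Irf8 was 6.71 and 7.30 and Irf1 2.82 and 1.55. In mature neutrophils, with Cybb at 9.15 and 9.21, Irf8 was 0.438 and 0.426 and Irf1 2.33 and 2.39. Whether these factors act on Cybb here was not tested.

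The genes with the most similar course were sought over the 9 classes of 100 cells or more in both libraries, which gives 18 points that share libraries and free RNA. The values are Pearson correlations of log2 levels and serve as a description. Cybb was closest to its partner Cyba, at 0.92, then to Ceacam1 and Rnf166 at 0.90 and Aldh3b1 at 0.88. Cyba was closest to Wdr1 and Cbl at 0.96 and to Tmsb4x and Ceacam1 at 0.95. Ncf1 was closest to Fam222b and Cnn2 at 0.98, Pfn1 at 0.96 and Arrb2 at 0.96. In the MCAO library alone, Gtf2ird2, which overlaps Ncf1, was also among its closest genes. Ncf4 was closest to Irak3 at 0.95, Slc35d2 and Flna at 0.94 and Arhgdib at 0.93. Rac2 was closest to Arid3a and Cdc14a at 0.97, Srpk2 at 0.96 and Stxbp2 at 0.95. Among the 5 genes the pairs ranged from 0.70 for Cybb with Rac2 to 0.92 for Cybb with Cyba.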

How the data were processed

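Transcripts of single marrow cells were captured on the BD Rhapsody microwell system. Reads were handled with Seurat 4.0.6, UMI-tools, STAR and fastp on mm10, per the submitters' processing notes. Settings, gene annotation and cell filters are not given in the sources used here. Deposited values are natural log values, ln(1 + 10000 × gene UMIs / cell UMIs), as the values themselves show: whole UMIs were recovered for 100% of 19373615 values within 0.01 of a whole number. The UMIs were summed per class and library, and no test was possible with 1 library per condition. The 2000 most variable genes, without the oxidase genes, gave 30 principal components, 20 nearest neighbours and Leiden clusters at resolution 1 (scanpy 1.11.5, leidenalg 0.10.2). None of the 5 genes was among the variable genes when allowed. After the clusters were seen, 3 clusters led by genes of several classes were split by the clusters of resolution 2. Clusters were named from fixed markers. Scrublet marked 52 control and 57 MCAO cells as doublets (0.998% and 1.06%), which were kept. Levels have exact Poisson intervals, ratios exact conditional binomial intervals and shares Clopper-Pearson intervals. Only the ratio intervals were tested, on simulated Poisson counts, which hold no further spread between cells or libraries. Log2 ratios use a pseudocount of 0.02 per 10000. Named beside the 5 genes are, of each linked list, up to 4 with the ratio furthest from 1 and up to 4 with the highest level in neutrophils, every gene of a count under 6, and the 4 genes most alike each member among those with at least 500 UMIs and no Gm or Rik name. Of the 22 other oxidase genes, Cybc1, Nox3, Noxa1 and Duox2 had no row of that name, and 1 further listed gene is not reported here. Members and lists were chosen with earlier results of these data known.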

Additional observations from a re-analysis of the deposited data

Results flagged for a closer look

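Ncf4 differed between the libraries in opposite directions in different classes. Its log2 ratio of MCAO over control was 0.69 in macrophages (61 and 83 UMIs) and 0.33 in B cells (252 and 277 UMIs), but -1.07 in basophil or mast cells (30 and 11 UMIs, under the number needed to be ranked). Each of these classes was past the fold with an interval that excluded 1 for counting error. In macrophages Ncf4 was 0.831 and 0.830 times the level that free RNA could bring, so it is not read as macrophage expression. In B cells the fold was passed in cluster 8 (1.46 and 2.35 per 10000) but not in cluster 5 (1.73 and 1.81). The difference between the classes was not tested, since each condition is 1 library.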

How the results depend on the processing

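With 1 library per condition, no value here separates MCAO from the making of a library. The median depth of mature neutrophils (2348 and 3074 UMIs) limits the share of cells in which a gene is found, and Ncf4 was found in the fewest of the 5. No paired analysis was possible because each condition has 1 library and the labels give no replicate numbers. In mature neutrophils the log2 ratios of Cyba and Rac2 stayed within their counting intervals under all 12 alternatives. Those of Ncf1 kept their sign under all 12, between 0.20 and 0.38, and those of Ncf4 under all 12, between 0.00186 and 0.34. Cybb (0.01) had the sign of the reported value under 7 of 12. It was 0.18 at resolution 2, -0.11 in cells of at least 2000 UMIs, -0.58 in cells of 2000 to 4000 UMIs, -0.15 within cluster 1 and -0.26 within cluster 2. Ncf1 (0.34) was 0.24 in cells of 2000 to 4000 UMIs, 0.27 within cluster 1 and 0.20 within cluster 2. Ncf4 (0.31) was 0.00186 within cluster 2. The causes of these shifts were not tested. Leaving out clusters with over 90% of cells from 1 library was added after seeing the data. In other classes 68 of 429 alternative log2 ratios left the counting interval. None of the values past the fold changed sign, among classes other than erythroid cells with 100 cells or more in both libraries, and for Ncf4 in macrophages and basophil or mast cells. The medians of the linked lists moved by less than the spread of their genes in all 100 cases, and all 15 correlations with the closest gene stayed within 0.1.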
